A study of Homo sapiens with 3 samples.

Results

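The cytosolic ribosome is built from ribosomal RNA and one copy of most of its proteins. The proteins of the small subunit carry the prefix RPS, those of the large subunit RPL, and those of the stalk that recruits the translation factors RPLP. The members were chosen by symbol: every probe that the platform annotation assigns to RPSA, to an RPLP gene, or to RPL or RPS with a number and an optional suffix (A, L, X, L1 or L2). The ribosomal S6 kinases and the mitochondrial ribosomal proteins were not members. The rule found 79 probes for 69 genes, out of 24460 probes and 17621 gene symbols on the array. These genes are 61 core proteins (38 of the large and 23 of the small subunit), 7 paralogues (RPL3L, RPL7L1, RPL10L, RPL22L1, RPL26L1, RPL39L and RPS27L, with 9 probes), and RPS10L, a symbol now given to a pseudogene of RPS10. Of these genes 10 had more than 1 probe. RPSA, RPLP0 and some other ribosomal proteins were not analysed here.

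The cells were HepG2, an established human hepatocellular carcinoma line, harvested 72 h after transfection with siRNA at 10 nM. The 3 groups received a negative control siRNA, villin siRNA or PTK7 siRNA, and each has 1 array and no replicate. Villin, encoded by VIL1, bundles the actin of microvilli, and PTK7 is a pseudokinase of the receptor tyrosine kinase family. The labels name a pair of villin siRNAs without saying which was on the array. All comparisons below are therefore differences between single arrays, without a test, and both comparisons with the control siRNA use the same control array.

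Ribosomal protein mRNAs are among the most abundant of a growing cell. Most of them begin with a C followed by an unbroken stretch of pyrimidines, the 5′ terminal oligopyrimidine or 5′TOP motif, through which mTOR and the RNA-binding protein LARP1 control their translation together. Several of the proteins have a paralogue. RPL10L is an intronless copy of the X-linked RPL10 that is used in the male germ line, RPL39L is likewise known from testis, RPL3L replaces RPL3 in striated muscle, and RPL22L1 is a paralogue of RPL22.

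The start regions of the genes are shown first, because they differ between most core genes and most paralogues and do not depend on the arrays. Each window holds 10 bases before the start annotated by RefSeq (GRCh38.p14) and the first 20 bases from it, 5′ to 3′ on the gene's strand. Capitals mark the run of C and T at the start. The first 5 are core proteins of the stalk and of partners of a paralogue, the next 5 are paralogues, and the last 3 are core genes whose probes or values are described below.
RPLP1: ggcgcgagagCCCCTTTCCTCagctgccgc
RPLP2: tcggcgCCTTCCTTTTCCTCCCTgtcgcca
RPL10: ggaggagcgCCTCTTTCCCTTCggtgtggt
RPL22: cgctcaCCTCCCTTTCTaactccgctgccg
RPL26: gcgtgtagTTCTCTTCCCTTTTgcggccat
RPL10L: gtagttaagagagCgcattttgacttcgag
RPL22L1: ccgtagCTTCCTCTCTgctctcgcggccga
RPL26L1: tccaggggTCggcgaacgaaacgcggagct
RPL7L1: gtgcggcgCCgtagctaggagcggacgcca
RPS27L: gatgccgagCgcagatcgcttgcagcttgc
RPS27: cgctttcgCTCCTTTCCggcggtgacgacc
RPS18: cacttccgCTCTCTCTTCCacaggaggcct
RPL31: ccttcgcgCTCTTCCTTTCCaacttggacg

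The windows of the stalk genes lie at chr15:69452808-69452837 (plus strand, RPLP1) and chr11:809957-809986 (plus, RPLP2). Those of the large subunit partners lie at chrX:154398367-154398396 (plus, RPL10), chr1:6199576-6199605 (minus, RPL22) and chr17:8383174-8383203 (minus, RPL26). The paralogue windows lie at chr14:46651762-46651791 (minus, RPL10L), chr3:170870176-170870205 (minus, RPL22L1), chr5:172958719-172958748 (plus, RPL26L1), chr6:42879606-42879635 (plus, RPL7L1) and chr15:63157458-63157487 (minus, RPS27L). The last 3 lie at chr1:153990752-153990781 (plus, RPS27), chr6:33272065-33272094 (plus, RPS18) and chr2:101002279-101002308 (plus, RPL31). Each window spans the annotated start, so it holds upstream sequence and the beginning of the transcript.

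A run of at least 6 pyrimidines that holds a base from 3 before to 4 after an annotated start was found at 45 of 53 core genes with a promoter in the RefSeq table (84.9%). The same run was found at 6193 of 27305 genes of the whole table (22.7%) and at 10 of 69 mitochondrial ribosomal protein genes (14.5%). Among the paralogues 1 of 5 had it, RPL22L1, with a run of 10 bases. RPL10L and RPS27L had 1 pyrimidine at the start, and RPL26L1 and RPL7L1 had 2. Their partners RPL10, RPL26 and RPS27 had runs of 13, 14 and 9 bases. Among the other partners RPL22 and RPL39 had 11 and 22, and RPL3 had 5, below the limit. RPL3 is not among the windows shown, and all core windows shown have a run of at least 6. A run of purines of that length, which is a pyrimidine run on the opposite strand, was at the start of 5.66% of the core genes and 18.1% of all genes. The start is RefSeq's and was not measured in these cells.

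**Figure D1:**
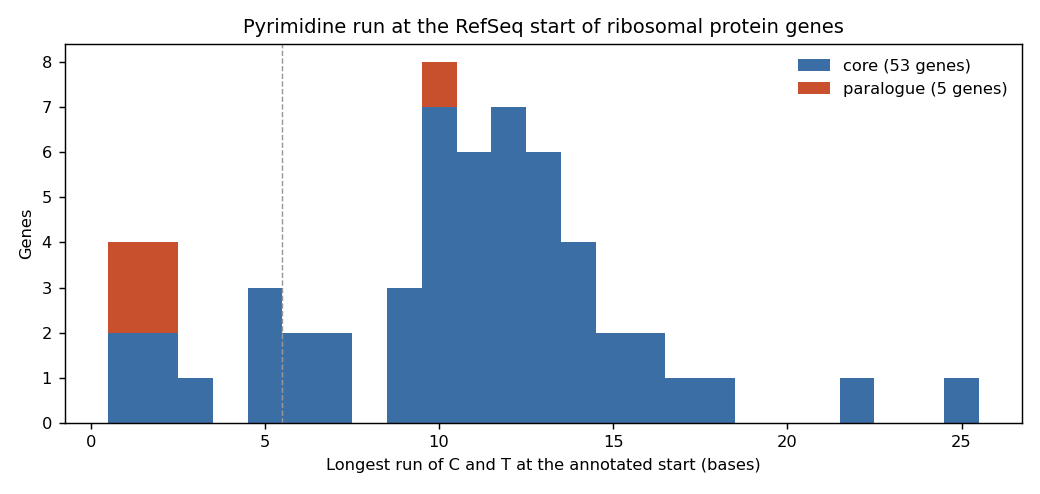
Longest run of C and T at the annotated start (x axis, bases) against the number of genes (y axis), for 53 core genes and 5 paralogues with a promoter in the table. The dashed line marks the lower limit of 6 bases. Of the paralogues 4 lie below the line and RPL22L1, at 10 bases, lies among the core genes.

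Other letters in the promoter (250 bases before the start and 50 after it) were counted in the same way. CGGAAG, the core of the sites bound by ETS factors, was present on either strand in 34 of 53 core promoters (64.2%), 38 of 69 mitochondrial ribosomal protein promoters (55.1%) and 22.6% of all promoters. AAGATGG, part of the YY1 site, was present on either strand in 9.43% of core promoters, 34.8% of mitochondrial ribosomal protein promoters and 7.11% of all. These are matches of letters and do not show a bound factor.

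On the arrays the ribosomal protein probes were bright. In the authors' deposited table an intensity is the spot signal above blank, scaled so that the median of each array is 25. The median over the members was 10142 with control siRNA, 9104 with villin siRNA and 8893 on the array labelled PTK7 siRNA. On the control array 49 members were at 5000 or more, 17 from 200 to below 5000, and 12 below 200. The members were 49 of the 244 probes at 5000 or more (20.1%), against 0.323% of all probes. The highest member intensities were 34600, 26960 and 27970 on the 3 arrays, and no member spot was saturated, the brightest reading 43774 scanner units.

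Of all 24460 probes 21373 were above background on all 3 arrays. Detection of the members was near complete, with 78 of 79 probes. The exception was 1 of the RPL41 probes, which encodes one of the smallest proteins of the ribosome. It was detected only on the villin siRNA array, with an intensity of 1, while the other RPL41 probe read 171, 166 and 161. A dim probe does not show a rare mRNA, since the brightness of a spot depends on its probe. RPL27A (15, 11 and 12 for 1 probe and 57, 63 and 47 for the other), RPS19 (8, 14 and 13), RPL37 (29, 29 and 30) and RPL32 (30, 29 and 29) encode proteins that every ribosome holds, and their probes were dim on all 3 arrays.

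Facts of the arrays as a whole bear on the values that follow. Between 90.2% and 92.1% of all probes were detected on the 3 arrays. VIL1 had deposited intensities of 924, 129 and 1084 with control, villin and PTK7 siRNA, 5.66-fold lower with villin siRNA than with control siRNA after normalisation. PTK7 read 14, 25 and 12, which gives a log2 difference of −0.05 between its own siRNA and the control. This does not show a knockdown, so the array is named by its label here. At such levels the offset in the background correction shrinks differences, so the value does not show that there was no knockdown either. All 10 hepatocyte markers were detected on each array, with summed intensities of 82242, 68158 and 75880. The 11 markers of other cell types with a probe summed to 935, 1235 and 1062, and 1, 2 and 3 of them were not detected. Their part in the results was not tested. Spots of 1 kind of positive control within an array had an SD of 0.120 to 0.128 on the log2 scale. Pooled over both kinds, the SD within a kind was 0.193 on the control array. These are measures of error between spots and not between cultures.

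The ribosomal protein genes as a set differed little between the arrays. After normalisation the median log2 difference of the 78 detected members was 0.03 between villin siRNA and control siRNA (all probes −0.01), −0.03 between PTK7 siRNA and control siRNA (all probes −0.01), and 0.03 between villin siRNA and PTK7 siRNA (all probes −0.00). The members above 0 numbered 40, 37 and 46 in these comparisons, or 51.3%, 47.4% and 59.0%, against 45.2%, 47.2% and 47.9% of all probes. Within 1.3-fold lay 97.4% of the members in each comparison, against 93.8%, 95.3% and 97.9% of all probes. Most probes are far dimmer than the members. Of the 195 other probes at a deposited intensity of 5000 or more on the control array, 84.6%, 88.7% and 91.8% lay within 1.3-fold. The 49 members at that level all did.

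No member differed by 1.5-fold or more between villin siRNA and control siRNA, where 1.87% of all probes did. Between PTK7 siRNA and control siRNA 2 of 78 members (2.56%) did, where 1.02% of all probes did. These were RPL10L, lower, and 1 of the RPL7L1 probes, higher, and both are paralogues. Between villin siRNA and PTK7 siRNA no member did, where 0.57% of all probes did. At 2-fold no member was called in any comparison, against a background of 0.281%, 0.116% and 0.046% in the same order. Without a replicate, the counts describe these 3 arrays. The shares of all probes come mostly from spots far dimmer than the members. Among the 195 other probes at 5000 or more, 7 were at least 1.5-fold higher and 3 lower with villin siRNA than with control siRNA. With PTK7 siRNA against control siRNA 5 were higher and 0 lower, and villin siRNA against PTK7 siRNA gave 1 and 1. Of the 49 members at that level 0 were called in any comparison. Probes near the blank could hardly be called, since the offset in the background correction shrinks their differences. RPS20 read 9, 6 and 4 on the control, villin and PTK7 arrays, with normalised differences from the control of −0.12 and −0.15. RPS19 read 8, 14 and 13, with 0.16 and 0.13. The counts therefore do not show that the dimmest members were unchanged.

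**Figure D2:**
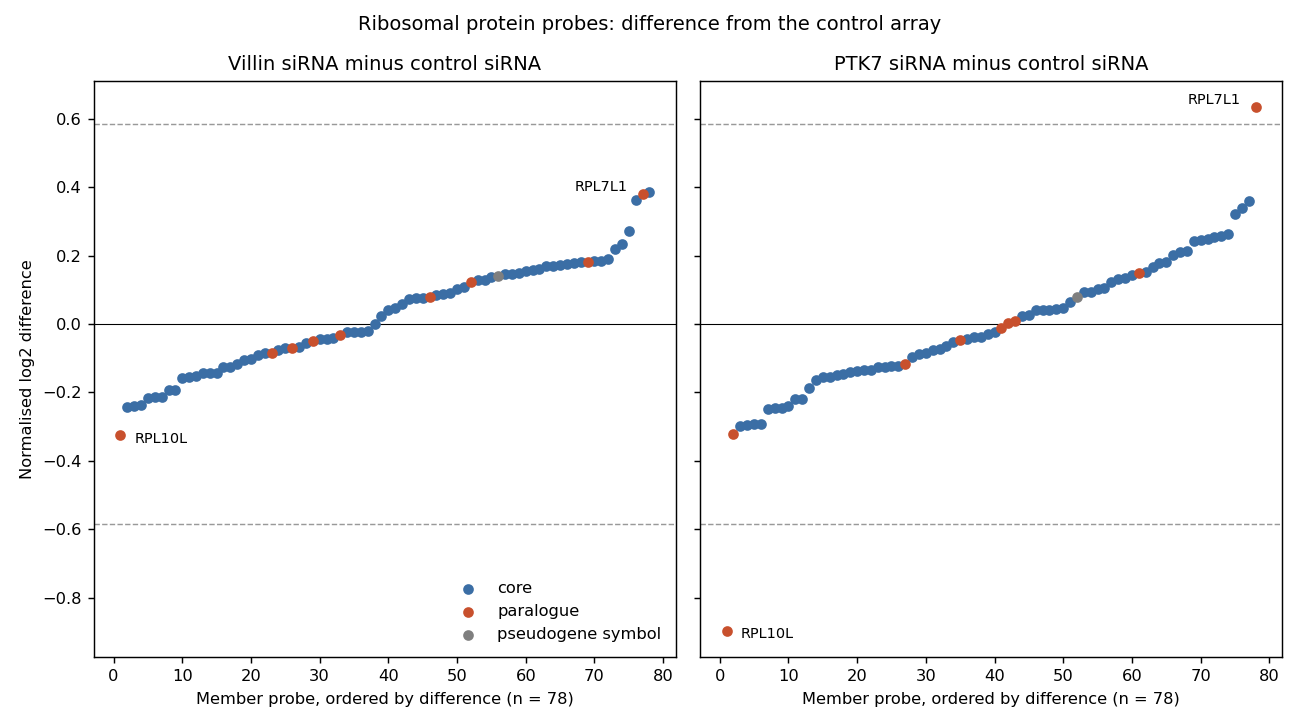
Normalised log2 difference from the control array (y axis) of the 78 detected member probes, ordered by size (x axis), for villin siRNA on the left and the array labelled PTK7 siRNA on the right. Points are single probes coloured by class, and dashed lines mark 1.5-fold. The core probes lie between −0.30 and 0.39 in both panels, and RPL10L (−0.90) and 1 RPL7L1 probe (0.63) lie outside the lines on the right.

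The 68 detected core probes ranged from −0.24 to 0.39 for villin siRNA against control siRNA. For PTK7 siRNA against control siRNA the range was −0.30 to 0.36, and for villin siRNA against PTK7 siRNA it was −0.25 to 0.32. Their SDs over probes were 0.155, 0.178 and 0.124. By subunit, the 25 small subunit probes had medians of −0.02, −0.12 and 0.07 and the 43 large subunit probes 0.05, −0.02 and −0.00. After scaling for position on the slide, described below, the small subunit medians were 0.04, 0.04 and 0.03 and the large subunit medians −0.01, −0.05 and 0.03.

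Before normalisation the members lay lower on both knockdown arrays. In log2 of the deposited intensities (plus a pseudocount of 1), their median difference from the control array was −0.11 for villin siRNA and −0.12 for PTK7 siRNA, where all probes had 0. The 49 members at 5000 or more had −0.14 and −0.14. The other 195 probes at 5000 or more, which are not ribosomal proteins, had −0.19 and −0.15. After quantile normalisation the bright members had 0.02 and 0.04 and the other bright probes −0.06 and −0.02.

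The stalk and the proteins that bind 5S RNA were read by single bright probes. RPLP1, an acidic stalk protein, had intensities of 31436, 24010 and 27630 with control, villin and PTK7 siRNA. The normalised differences from the control were −0.10 and −0.03 (0.13 and 0.07 after position scaling). RPLP2, its partner in the stalk, had 15199, 11752 and 12890, with differences of −0.21 and −0.07 (−0.13 and −0.02 after scaling). Both were highest on the control array in the deposited values, and none of the normalised differences reached 1.3-fold.

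RPL5 and RPL11 enter the large subunit together with 5S RNA and, when not assembled, bind the ubiquitin ligase MDM2. RPL5 had intensities of 7522, 6505 and 7129 on the control, villin and PTK7 arrays and normalised differences of −0.08 and 0.05. RPL11 had 14790, 14995 and 15285 and differences of 0.18 and 0.25. RPL11 was thus slightly higher on both knockdown arrays, within 1.3-fold. MDM2 itself read 2798, 1978 and 1972, with differences of −0.40 and −0.44 (−0.38 and −0.33 after position scaling). CDKN1A, a cell cycle inhibitor, read 1924, 2349 and 1510, with differences of 0.33 and −0.33 (0.51 and −0.03 after position scaling). Villin siRNA against PTK7 siRNA gave 0.66 for CDKN1A (1.58-fold, 0.54 after position scaling) and 0.04 for MDM2. CDKN1A was thus past 1.5-fold in that comparison, where 0.57% of all probes were.

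RPL10L stood farthest from the other members. Its deposited intensity was 1433 with control siRNA, 1101 with villin siRNA and 741 with PTK7 siRNA. The control array was highest and the array labelled PTK7 siRNA lowest. The normalised log2 difference was −0.33 for villin siRNA and −0.90 for PTK7 siRNA against the control, the latter 1.86-fold lower (1.93-fold in the deposited values). Villin siRNA against PTK7 siRNA gave 0.57, or 1.49-fold. Of the 21488 probes detected on the control array and the array labelled PTK7 siRNA, 4 were as low as RPL10L or lower, itself included. The offset shrinks the differences of dim probes, so this is not a rank among probes of like brightness. In the deposited values, which have no offset, 1060 of these probes were at least 1.5-fold lower. At least 2-fold apart in either direction were 586.

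RPL10, the parent gene, encodes a protein that joins the large subunit late in its assembly. Its probe in block 14 of the slide had intensities of 12063, 11017 and 11996 on the control, villin and PTK7 arrays. The probe in block 16 had 14296, 13163 and 11797. Their normalised differences between PTK7 siRNA and control siRNA were 0.17 and −0.12, so they lay on either side of 0. The difference of RPL10L minus the mean of the RPL10 probes was −0.92.

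Where a probe sat on the slide moved with these values. RPL10L sat in block 5, and the 39 detected probes around it had a median difference between PTK7 siRNA and control siRNA of −0.13, with a range of −0.48 to 0.07. RPL10L lay below all of them in these normalised values, in which the offset shrinks the differences of dim neighbours. The range is therefore not like for like with RPL10L. Position scaling used signals above blank without the offset, so it could move a value by more than this median. After scaling to the surroundings the RPL10L difference was −0.49, 1.41-fold lower, and 25 of 21488 probes were as low or lower. The offset limits that rank in the same way. The villin siRNA difference was then −0.06, villin siRNA against PTK7 siRNA 0.44, and the difference from RPL10 −0.52. The scanner's own background column, which follows the spot signal, turned the PTK7 siRNA difference to 1.74. The probe sequences were not used here, so whether the RPL10L probe also binds RPL10 or its processed copies was not tested.

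RPL7L1, a homologue of RPL7, was read by a pair of probes that differed. The probe in block 23 had intensities of 688, 875 and 1058 on the control, villin and PTK7 arrays, lowest on the control array. Its normalised differences were 0.38 for villin siRNA and 0.63 for PTK7 siRNA, the latter 1.55-fold higher. The probe in block 11 had 1449, 1389 and 1432, with differences of −0.03 and 0.01. The 26 neighbours of the block 23 probe had a median PTK7 siRNA difference of 0.15, with a range of 0.01 to 0.51. Here too the offset shrinks the differences of dim neighbours. After position scaling the block 23 probe had 0.08 and 0.18, the latter 1.13-fold, and the block 11 probe −0.01 and 0.08. With the scanner's background column the 0.63 became −0.10. RPL7, the core protein, read 9760, 9682 and 9238, with differences of 0.13 and 0.04.

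At the probes of RPL22L1, RPL26L1 and RPS27L the normalised values lay within 1.3-fold of the control array on both knockdown arrays. RPL22L1 read 673, 736 and 653 and its partner RPL22 682, 699 and 605, and the paralogue's differences were 0.18 and 0.00. RPL26L1, which differs little from RPL26 in sequence, read 1224, 1143 and 1172 at the probe in block 13 and 1240, 1273 and 958 at the probe in block 1. The PTK7 siRNA differences of these probes were −0.01 and −0.32, and 0.04 and 0.19 after position scaling. The lower value thus turned in direction with the scaling. RPL26 read 10846, 9975 and 9649, with differences of 0.02 and −0.05.

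RPS27L, the paralogue of RPS27, read 2010, 1837 and 1809, with differences of −0.08 and −0.12. RPS27 read 15524, 12604 and 11834, with differences of −0.15 and −0.24 (0.22 and 0.19 after position scaling). RPL39L and RPL3L were close to background. RPL39L read 5, 3 and 3, and RPL3L 7, 12 and 11, against an array median of 25. The deposited values are 1.67-fold lower than the control on both knockdown arrays for RPL39L, and 1.71-fold and 1.57-fold higher for RPL3L, in steps of whole numbers. Their normalised differences, which the offset shrinks at such levels, were −0.07 and −0.05 for RPL39L and 0.12 and 0.15 for RPL3L, so they do not show that these genes were unchanged. The partner RPL39 read 6088, 5521 and 5392, with differences of −0.04 and −0.04. RPL3 read 3696, 3816 and 4025 at the probe in block 4 and 20118, 19408 and 21993 at the probe in block 18. Levels of different probes are not compared here, since each probe has its own brightness.

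**Figure D3:**
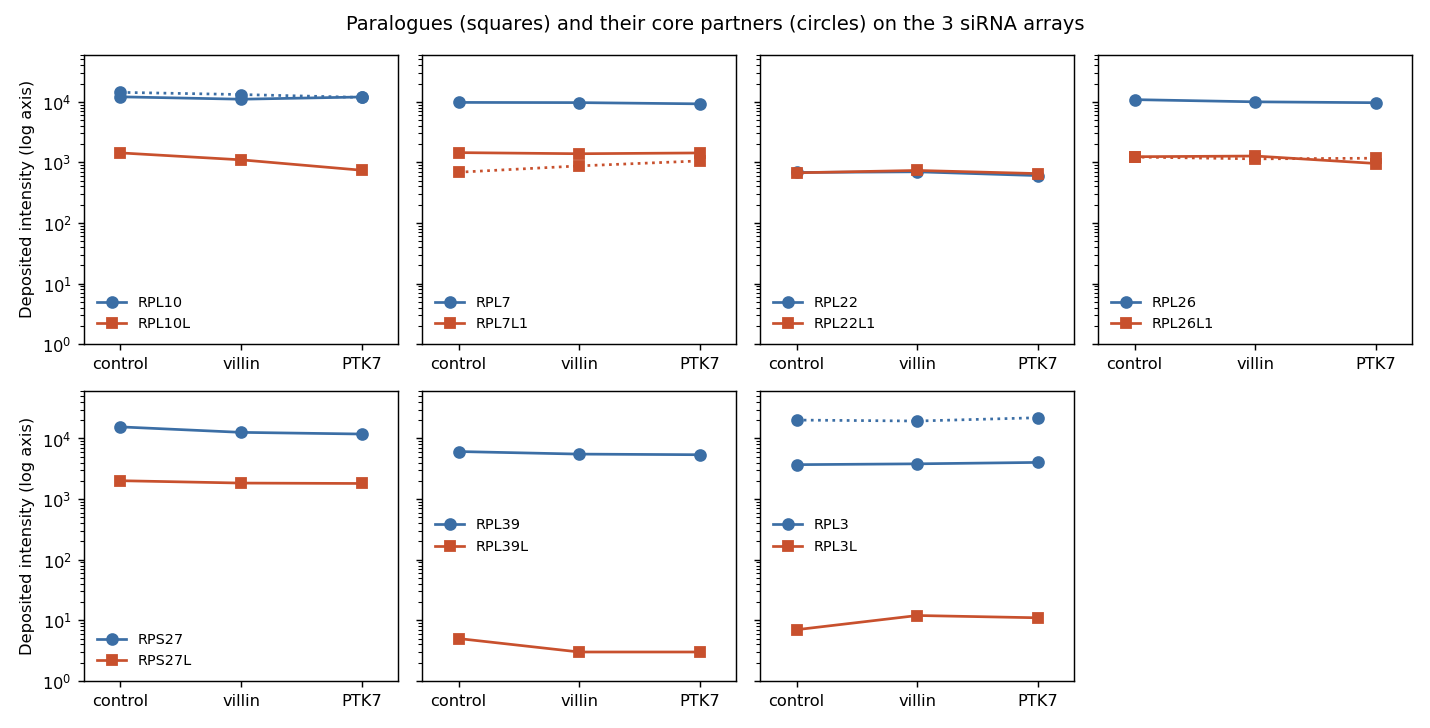
Deposited intensity (y axis, log scale) on the control, villin siRNA and PTK7 siRNA arrays (x axis) for the 7 paralogues (squares) and their core partners (circles). Dotted lines are a second probe of the same gene. RPL10L reads 1433 with control siRNA and 741 with PTK7 siRNA, both RPL10 probes read between 11017 and 14296, and heights of different probes are not comparable.

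The core probes at the ends of the normalised distribution are given next. RPS3A, a small subunit protein, was the highest member for villin siRNA, with intensities of 1230, 1569 and 1446 and differences of 0.39 and 0.26 from the control. RPL13 (5924, 7045 and 6846) had 0.36 and 0.34, RPL18 (12529, 13652 and 13474) 0.27 and 0.26, and RPL36 (5153, 5597 and 5866) 0.23 and 0.32. These 3 large subunit proteins were read in blocks 18, 24 and 23. After position scaling their values were −0.11 and −0.05, −0.07 and −0.15, and 0.04 and −0.13, whereas RPS3A kept 0.33 and 0.14. RPL14 (10524, 10542 and 12170) was the highest core probe for PTK7 siRNA, with 0.36, and kept 0.31. Position scaling also took some core probes away from 0. RPL37A (26454, 23942 and 27970, block 22) had 0.07 and 0.21 before it and −0.50 and −0.40 after it. RPL22 (block 2) had 0.08 and −0.12 before it and 0.38 and −0.06 after it, and 0.20 and then 0.44 between villin siRNA and PTK7 siRNA.

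The lowest core probe in both comparisons with the control was that of RPS25, a protein needed for initiation at some viral internal entry sites. It read 22304, 16249 and 15543, with differences of −0.24 and −0.30 (−0.09 and −0.06 after position scaling). RPL4, which lines the exit tunnel, read 18082, 13163 and 14385, with −0.24 and −0.10 (−0.03 and 0.09 after position scaling). The probes of RPL28 (48, 37 and 32) and RPS23 (138, 117 and 107), the latter a protein of the decoding centre, were dim. They had −0.24 and −0.29, and −0.22 and −0.29, and after position scaling −0.12 and −0.21, and −0.12 and −0.30.

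Villin siRNA against PTK7 siRNA is the comparison without the control array. After RPL10L its highest members were the block 1 probe of RPL26L1 (0.40), the block 1 probe of RPL15 (614, 686 and 547 on the 3 arrays, 0.32), RPS10 (2217, 2330 and 1941, 0.30) and RPL7A (11411, 11437 and 10082, 0.22). The lowest were the block 23 probe of RPL7L1 (−0.26), RPL14 (−0.25), RPL35 (12104, 10609 and 12455, −0.25), the block 14 probe of RPL31 (−0.20) and RPS13 (13414, 11011 and 12571, −0.17). Of these, RPL15 (0.33) and RPS13 (−0.17) had nearly the same value after position scaling, and the others moved toward 0.

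The members' differences followed their place on the slide. The 41 detected members in blocks 1 to 12 had median differences from the control of −0.08 for villin siRNA and −0.12 for PTK7 siRNA, and the 37 in blocks 13 to 24 had 0.13 and 0.10. All probes moved the same way, with −0.05 and −0.06 in the first 12 blocks and 0.03 and 0.05 in the rest. After position scaling the members had 0.04 and 0.04 in the first 12 blocks and −0.02 and −0.06 in the rest, opposite to the order before scaling. Villin siRNA against PTK7 siRNA gave 0.06 and 0.02 before scaling.

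**Figure D4:**
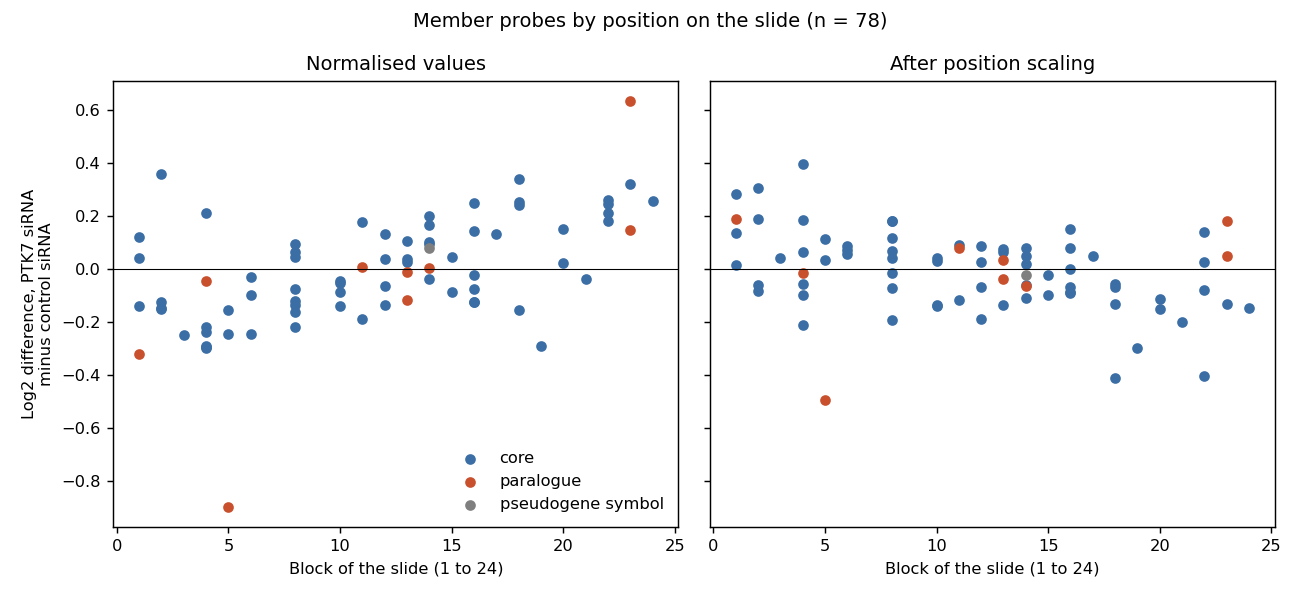
Log2 difference between PTK7 siRNA and control siRNA (y axis) of the 78 detected member probes by block of the slide (x axis), before (left) and after (right) scaling each spot to its surroundings. Members of blocks 1 to 12 have a median of −0.12 and those of blocks 13 to 24 of 0.10 on the left, and 0.04 and −0.06 on the right.

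Genes with a pair of probes show how far probes of 1 gene differ within these arrays. For the 9 genes with both probes detected, the probes of a gene lay apart by a median of 0.13 for villin siRNA against control siRNA and 0.29 for PTK7 siRNA against control siRNA. For villin siRNA against PTK7 siRNA they lay apart by a median of 0.26. They had opposite signs in 4, 4 and 5 of the 9 genes, and in 7, 3 and 4 after position scaling. For PTK7 siRNA against control siRNA the widest gap was 0.63, that of RPL7L1, and RPL10L minus its parent RPL10 was −0.92. After position scaling the widest gaps were 0.46 in that comparison and 0.59 for villin siRNA against control siRNA, both of RPL3, and RPL10L minus RPL10 was −0.52, smaller in size than the latter gap.

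RPS18, a protein of the head of the small subunit, had the widest gap after RPL7L1. It read 23841, 21247 and 25765 in block 22 and 34600, 24847 and 27502 in block 5, with PTK7 siRNA differences of 0.25 and −0.25. RPL31, which lies at the exit tunnel, read 24283, 20885 and 25614 in block 14 and 14146, 11002 and 10572 in block 3, with 0.20 and −0.25. After position scaling the RPS18 values were 0.03 and 0.04 and the RPL31 values 0.08 and 0.04. The median gap for PTK7 siRNA then fell from 0.29 to 0.10, while for villin siRNA against control siRNA it was 0.12. Scaling did not bring all probes together. The RPL3 probes gave 0.21 and 0.24 before it and 0.40 and −0.07 after it, a gap of 0.46.

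**Figure D5:**
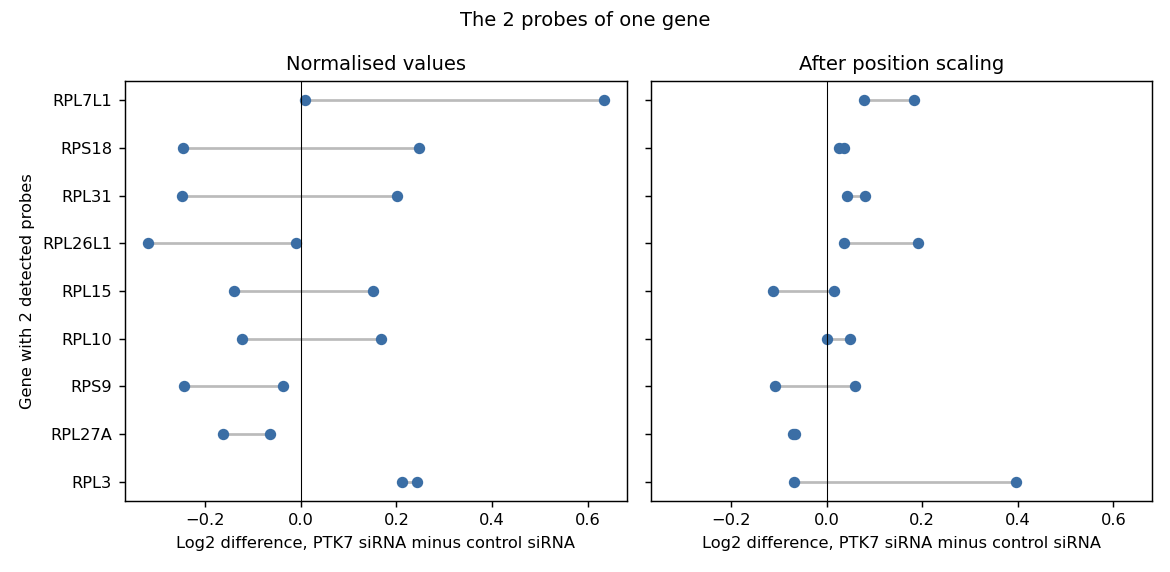
Log2 difference between PTK7 siRNA and control siRNA (x axis) of both probes (points joined by a line) of the 9 member genes with 2 detected probes, before (left) and after (right) position scaling. The probes of RPS18 move from −0.25 and 0.25 to 0.04 and 0.03, and those of RPL3 move apart.

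Genes that share the 5′TOP motif or serve the ribosome had medians near 0 as well. For each the brightest probe was taken. The 14 detected non-ribosomal 5′TOP genes had medians of 0.02 for villin siRNA and −0.06 for PTK7 siRNA against the control, and 0.07 between the knockdown arrays. EEF1B2, a subunit of the elongation factor 1 exchange complex, read 10, 136 and 88 with control, villin and PTK7 siRNA. Its differences from the control were 1.86 and 1.42 (1.52 and 1.13 after position scaling). At 1.5-fold 1 of the 14 genes was higher with villin siRNA (1.87% of all probes were called), and 1 was higher and 1 lower with PTK7 siRNA (1.02% of all probes). EIF3E, a subunit of initiation factor 3, read 3223, 2462 and 1948, with −0.31 and −0.68 (0.16 and −0.16 after scaling), and EIF3H of the same factor read 740, 1033 and 812, with 0.50 and 0.16.

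The 52 detected ribosome biogenesis factors had medians of −0.04, −0.03 and 0.04 in the same order. NAT10, an RNA acetyltransferase that modifies the small subunit RNA, read 771, 504 and 411, with differences of −0.56 and −0.83 (−0.11 and −0.25 after position scaling). FBL, the fibrillarin methyltransferase, read 1033, 1511 and 1198, with 0.58 and 0.26 (0.18 and −0.20 after scaling). At 1.5-fold 0 of 52 differed between villin siRNA and control siRNA (1.87% of all probes) and 1 of 52, NAT10, between PTK7 siRNA and control siRNA (1.02% of all probes), close to the shares of all probes.

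The 76 mitochondrial ribosomal proteins had medians of −0.02, −0.03 and −0.01. MRPL52 of the mitochondrial large subunit read 955, 1905 and 1714, with differences of 1.03 and 0.87, and was the 1 gene of 76 past 1.5-fold in each comparison with the control, where 1.87% and 1.02% of all probes were. After position scaling it had 0.12 and −0.08. The 10 detected regulators of ribosomal protein synthesis, among them mTOR, LARP1 and S6 kinases, had medians of −0.01, −0.08 and −0.01. EIF4EBP1, a repressor of cap-dependent initiation and a target of mTOR, read 406, 260 and 308, with differences of −0.59 and −0.37 (−0.23 and −0.01 after scaling). It was the 1 gene of these 10 past 1.5-fold with villin siRNA, where 1.87% of all probes were.

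Genes mutated in Diamond-Blackfan anaemia, an inherited failure of red cell production, had medians of 0.02, 0.05 and 0.02 over 17 detected genes, all of them members. Ribosomal proteins whose symbols fall outside the rule were also looked up. FAU, whose product is cleaved into the small subunit protein RPS30, read 14303, 10594 and 10654, with −0.29 and −0.25 (−0.06 and −0.10 after position scaling). RPL36AL, a copy of RPL36A, read 1445, 1901 and 1791, with 0.43 and 0.33 (−0.00 and −0.18 after scaling). Ribosomal protein pseudogenes with a probe of their own had medians of −0.01 and 0.01 against the control over 16 detected probes, and −0.02 over 17 between the knockdown arrays.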

How the data were processed

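Total RNA was amplified, labelled with Cy5 and hybridised to Toray one-colour arrays, per the labels' protocols. Per the file headers, the scanner files hold a median intensity per spot. The authors' deposited table holds whole-number intensities, which match the scanner median less the mean of blank spots after division by 1.26, 1.60 and 1.34 on the control, villin and PTK7 arrays, so that the median is 25 on each. Other steps of the authors are not given in the sources used here.

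Probes were named from the platform annotation and detected if 2 SDs above the blank mean. Spot medians were corrected with normexp (offset 50, which shrinks the differences of dim probes), quantile normalised over the 3 arrays and put on the log2 scale (limma 3.58.1, R 4.3.3, Python 3.11.15). These steps were also run on simulated arrays. The simulation had no differences of scale or slide position between arrays, which the real arrays have, so it does not test how these were handled. For position scaling, the signal of a spot was first divided by how far its surroundings (11 columns by 5 rows) deviated from the mean of the 3 arrays. With 1 array per group there was no test, and a probe detected on both arrays was called at 1.5-fold. Named genes were the paralogues and partners, stalk and 5S-binding proteins, the 5 highest and 5 lowest members per comparison, called members, genes whose probes lay over 0.5 apart, and up to 4 genes per list. RPS18, RPL31, RPL37A and the dim RPL27A, RPL32, RPL37, RPL41, RPS19 and RPS20 were added after their values were seen. Members, lists and position scaling were chosen with earlier results of these data known.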

Additional observations from a re-analysis of the deposited data

How the results depend on the processing

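The median differences of the ribosomal protein probes moved by less than 0.193 (the log2 SD within a kind of positive control spot on the control array, pooled over both kinds) under all 12 other settings tried. They ranged from −0.11 to 0.07 for villin siRNA against control siRNA, from −0.12 to 0.01 for PTK7 siRNA against control siRNA, and from 0.01 to 0.14 for villin siRNA against PTK7 siRNA. The limit of 0.193 is an SD of single spots and exceeds the medians themselves, so staying within it says little. The sign turned with the deposited values for villin siRNA (−0.11) and with position scaling for PTK7 siRNA (0.01), both against control siRNA. The counts of members at least 1.5-fold apart (0, 2 and 0) depended on the values used. The deposited values gave 2 and 4 against the control, plain subtraction of the blank 4, 5 and 1, the scanner's background column 31, 28 and 22, and median scaling 1 between the knockdown arrays. For PTK7 siRNA against control siRNA position scaling gave 0, the brightest probe of each gene 1, the mean of a gene's probes 1, and a 2-fold threshold 0. All-probe counts were 406, 220 and 124. They were 2226, 2181 and 936 with the deposited values, 3044, 2982 and 1416 with subtraction, 1372, 1641 and 1419 with the background column, 222 and 35 against the control with position scaling, and 61, 25 and 10 at 2-fold. The deposited values and subtraction have no offset, and the deposited values no quantile normalisation, and which of these moved the counts was not tested. The background column reversed RPL10L (1.74) and the RPL7L1 probe (−0.10) for PTK7 siRNA, and the cause was not tested. No paired analysis was possible because each group had 1 array and no replicate numbers are shared. Precision is limited by the single array per group, and 12 members lay below an intensity of 200.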
